A study of Mus musculus with 12 samples.

Results

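Hox genes were followed in stromal cells sorted from the small intestine and the colon of adult mice. The members were all genes of the deposited count table whose mouse symbol is Hoxa, Hoxb, Hoxc or Hoxd followed by a number only, and 37 of the 32052 genes in the table met that rule. They comprise 11 genes of the HoxA cluster, 10 of HoxB, 7 of HoxC and 9 of HoxD. The GENCODE M21 annotation lists 39 such genes, and Hoxc12 and Hoxc13 were not analysed here. Of the 37 genes, 32 had enough counts to be tested and 5 did not (Hoxb1, Hoxc9, Hoxc11, Hoxd1 and Hoxd12). The rule for members uses gene symbols and no measured value, but members were chosen with earlier results of these data known.

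The mice were 8 to 12 weeks old and on a C57Bl6 background, and every group was sorted on a green fluorescent protein (GFP) transgene, Rspo3-GFP, named for the gene of the Wnt pathway agonist R-spondin 3. The labels do not describe how the transgene was built. Cells without the epithelial surface protein EPCAM and without the leukocyte protein CD45 were split by GFP into a negative and a positive fraction. The 4 groups of 3 libraries are therefore small intestine GFP-negative, small intestine GFP-positive, colon GFP-negative and colon GFP-positive. Total RNA was purified on a column, ribosomal RNA was removed by an enzymatic step, and sequences were counted per gene. A GFP gate selects every stromal cell type that uses the reporter, so each library is a mixture. Whether the 3 libraries of a group are from different mice, or from pools of mice, is not given in the labels, so p-values measure the spread between these libraries, which may be technical.

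Hox genes encode homeodomain transcription factors and lie in clusters, each numbered from one end to the other so that genes with the same number in different clusters are paralogs. In the embryo, low numbers are used from more anterior levels and high numbers only toward the tail, and the gut mesoderm follows that order. Here numbers 1 to 4 are called anterior (12 genes), 5 to 8 middle (11 genes) and 9 to 13 posterior (14 genes). HoxA lies on chromosome 6, HoxB on chromosome 11, HoxC on chromosome 15 and HoxD on chromosome 2 (mm10).

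The libraries held between 6489835 and 12286054 gene counts, and 783 to 2344 of these fell on Hox genes. Rspo3 itself was at 8.78, 13.7 and 4.5 CPM (counts scaled to the TMM library size) in the small intestinal GFP-negative libraries, 196, 191 and 192 in the GFP-positive ones, 2.49, 6.51 and 2.28 in the colonic GFP-negative libraries and 161, 117 and 119 in the GFP-positive ones, so every library matched its GFP label. Fibroblast markers were abundant in all 12 libraries. They summed to 8797 to 25599 CPM in small intestinal GFP-negative and 40589 to 62239 CPM in small intestinal GFP-positive libraries. In the colon the sums were 27006.5 to 29878 CPM in GFP-negative and 20378 to 25019 CPM in GFP-positive libraries. Markers of lymphatic endothelium summed to 200.2 to 589 CPM in the GFP-negative libraries and 4302 to 21049 in the GFP-positive ones. Epithelial markers, which the EPCAM gate should remove, summed to 12.1 to 22.4 CPM in small intestinal GFP-positive libraries, 276 to 872 in small intestinal GFP-negative libraries and 391 to 2901 in the colon. Small intestinal GFP-negative replicate 3 stood apart with leukocyte markers at 2810 CPM, against 50.9 and 81.9 in the other libraries of its group. In bulk samples, fewer cells of a type and less RNA per cell cannot be told apart.

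Hox counts were divided differently along the clusters in the 2 tissues. Summed over the 37 genes, Hox counts came to 195, 245 and 126 CPM in small intestinal GFP-negative cells, 174, 188 and 174 in small intestinal GFP-positive cells, 191, 185 and 181 in colonic GFP-negative cells and 218, 224 and 217 in colonic GFP-positive cells. The tissue ranges of this sum overlapped in GFP-negative cells, and in GFP-positive cells the colon lay above the small intestine. The share of those counts on posterior genes was 2.77, 1.58 and 0.766% in small intestinal GFP-negative libraries and 1.82, 6.73 and 3.2% in small intestinal GFP-positive libraries. It was 70.8, 71.4 and 77.7% in colonic GFP-negative libraries and 29.9, 34 and 38.7% in colonic GFP-positive libraries. No small intestinal library reached the share of any colonic one, and within the colon the GFP-negative and GFP-positive libraries did not overlap either.

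Anterior genes took the complementary share. Their part of Hox counts was 60.9, 45.7 and 49.8% and 54.1, 36.5 and 54.9% in the GFP-negative and GFP-positive fractions from small intestine. In the colon it was 9.04, 8.59 and 7.0% and 22.2, 16.8 and 17.8%. Middle genes made up 20.2, 20.0 and 15.3% in colonic GFP-negative cells and 47.9, 49.3 and 43.5% in colonic GFP-positive cells. The middle share of the small intestine was 36.4, 52.7 and 49.4% in GFP-negative and 44, 56.8 and 41.9% in GFP-positive cells, so only colonic GFP-negative libraries stood apart. The exact (Clopper-Pearson) 95% intervals of the 36 shares were 1.06 to 7.12 percentage points wide and cover counting error only.

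**Figure D1:**
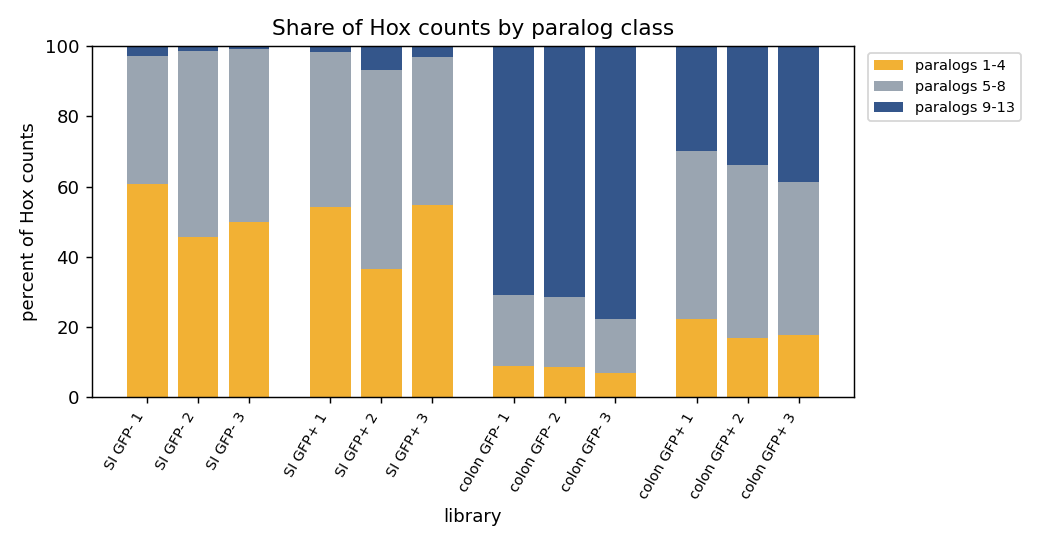
Stacked bars give, for each of the 12 libraries, the percent of all Hox counts on paralogs 1 to 4, 5 to 8 and 9 to 13. The posterior share is 0.766% to 6.73% in small intestinal libraries, 70.8% to 77.7% in colonic GFP-negative libraries and 29.9% to 38.7% in colonic GFP-positive libraries.

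Gene by gene, the tissue difference followed paralog number in both GFP fractions. On the scale of mean log2(CPM + 0.5), colon minus small intestine, the median over all 37 genes with no filter was -1.93 for anterior, -1.43 for middle and 3.93 for posterior genes in GFP-negative cells, and -0.02 over all 32052 genes. The GFP-positive medians were -0.93, -0.15 and 2.63, and 0 over all genes. The rank correlation of this difference with paralog number across the 37 genes was 0.744 in GFP-negative and 0.737 in GFP-positive cells, a description over genes that share libraries and are not independent. Cell type markers moved between the tissues too. Fibroblast sums, given by group above, lay higher in the colon in GFP-negative and lower in GFP-positive cells, without overlap. Of the 9 fibroblast markers edgeR called 0 in either fraction. At an unadjusted p under 0.05 it had 6 higher in GFP-negative and 7 lower in GFP-positive cells. In GFP-negative cells 4 of 6 telocyte markers were called higher in the colon, with sums of 584 to 1207 CPM in the small intestine and 1984 to 2051 CPM in the colon. In GFP-positive cells 8 of 10 epithelial markers were called higher, with the sums given above. The part of these cells in the Hox differences was not tested.

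**Figure D2:**
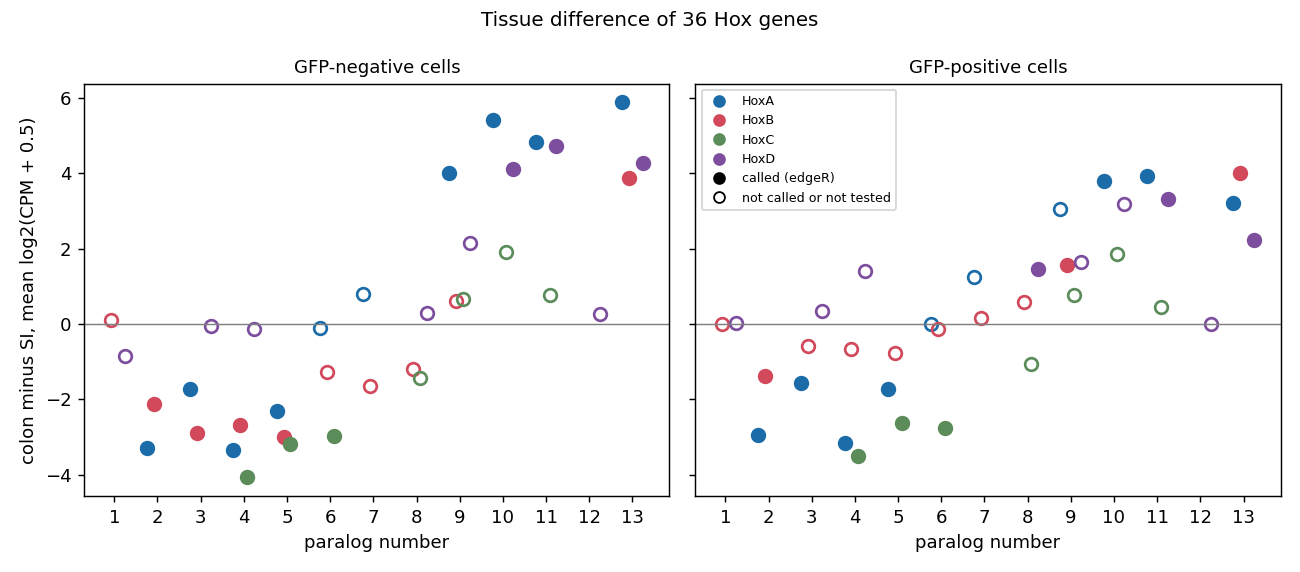
Each point is 1 of 36 Hox genes, with its paralog number on the x axis and the colon minus small intestine difference in mean log2(CPM + 0.5) on the y axis, coloured by cluster. Filled points passed the edgeR test; in both panels filled points with numbers 2 to 6 lie below 0 and those with numbers 8 to 13 above it.

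Each tissue comparison was tested with edgeR's quasi-likelihood test across 16757 genes, with Benjamini-Hochberg adjustment and a threshold of 0.05. In GFP-negative cells, 8 of the 37 Hox genes were higher in the colon, where 2.2% of all tested genes were called higher, and 11 were lower, where 2.01% of all tested genes were called lower. In GFP-positive cells, 8 were higher (2.75% of all tested genes) and 8 were lower (1.81% of all tested genes). The lower calls were Hoxa2, Hoxa3, Hoxa4, Hoxa5, Hoxb2, Hoxc4, Hoxc5 and Hoxc6 in both fractions, which is 8 of 8 in GFP-positive and 8 of 11 in GFP-negative cells, and Hoxb3, Hoxb4 and Hoxb5 in GFP-negative cells. Hoxa10, Hoxa11, Hoxa13, Hoxb13, Hoxd11 and Hoxd13 were higher in both fractions, 6 of the 8 calls in each. Hoxa9 and Hoxd10 were further calls in GFP-negative cells, and Hoxb9 and Hoxd8 in GFP-positive cells.

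By cluster, HoxA genes switched direction between Hoxa5 and Hoxa9, the lower HoxB calls were Hoxb2 to Hoxb5 in GFP-negative and Hoxb2 alone in GFP-positive cells, the higher ones were Hoxb13 in both and Hoxb9 in GFP-positive cells, HoxC calls were all lower and lay at Hoxc4 to Hoxc6, and HoxD calls were all higher and lay at Hoxd8 to Hoxd13. No anterior gene was called higher and no posterior gene lower by edgeR, DESeq2 or limma-voom in either fraction. This outcome was in part fixed by the filter on low counts. Hoxa9, Hoxa10, Hoxa11, Hoxa13, Hoxb13, Hoxd10, Hoxd11 and Hoxd13 could pass it only through colonic libraries. Hoxa2, Hoxa4, Hoxc4, Hoxc5 and Hoxc6 could pass it only through small intestinal ones. A tissue call on any of these genes could point 1 way only. At an unadjusted p under 0.05, edgeR had 0 posterior genes lower in both fractions, 0 anterior genes higher in GFP-negative and 1 in GFP-positive cells. The lower calls of GFP-positive cells depended on the tool: DESeq2 called 8, limma-voom 0 (8 at an unadjusted p under 0.05) and limma on the deposited log2(TPM + 1) values 2. Counts of calls also moved with single libraries. The higher calls of GFP-negative cells fell from 8 to 5, 4 and 3 without colonic GFP-negative replicates 1, 2 and 3, and to 5 without colonic GFP-positive replicate 2. The lower calls of GFP-negative cells fell from 11 to 7 without colonic GFP-negative replicate 2 or 3. The higher calls of GFP-positive cells fell from 8 to 5 without small intestinal GFP-positive replicate 1 or 3 or colonic GFP-positive replicate 2. The lower calls of GFP-positive cells fell from 8 to 4, 5 and 4 without small intestinal GFP-positive replicates 1, 2 and 3, and to 5, 4 and 2 without colonic GFP-positive replicates 1, 2 and 3.

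To show what lies in front of genes at the opposite ends of this order, 250 bases before the RefSeq start (GRCm38.p6) are printed for Hoxa13 and Hoxd13, higher in the colon of both fractions, and for Hoxa2 and Hoxc4, lower in both. RefSeq had 24 promoters for 22 of the 37 Hox genes. Capitals mark matches, on either strand, to TTTATG (a caudal-type site), TGATTNAT (a Hox-Pbx site) or AGGTCA (a nuclear receptor half-site).
Hoxa13, chr6:52260881-52261130, minus strand: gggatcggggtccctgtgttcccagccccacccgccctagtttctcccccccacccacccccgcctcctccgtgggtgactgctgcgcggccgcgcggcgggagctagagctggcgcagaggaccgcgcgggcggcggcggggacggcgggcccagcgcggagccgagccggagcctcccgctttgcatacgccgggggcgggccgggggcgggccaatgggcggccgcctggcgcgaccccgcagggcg
Hoxd13, chr2:74667975-74668224, plus strand: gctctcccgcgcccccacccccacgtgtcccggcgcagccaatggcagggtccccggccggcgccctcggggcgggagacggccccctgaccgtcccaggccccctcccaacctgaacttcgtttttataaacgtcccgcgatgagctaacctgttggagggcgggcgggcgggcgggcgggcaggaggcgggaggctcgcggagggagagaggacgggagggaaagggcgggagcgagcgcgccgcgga
Hoxa2, chr6:52164832-52165081, minus strand: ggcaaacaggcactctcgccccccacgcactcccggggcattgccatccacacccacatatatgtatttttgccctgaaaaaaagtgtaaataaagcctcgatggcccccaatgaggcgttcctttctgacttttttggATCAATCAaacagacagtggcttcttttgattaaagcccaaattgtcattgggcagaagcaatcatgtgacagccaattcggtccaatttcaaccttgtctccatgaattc
Hoxc4, chr15:103034145-103034394, plus strand: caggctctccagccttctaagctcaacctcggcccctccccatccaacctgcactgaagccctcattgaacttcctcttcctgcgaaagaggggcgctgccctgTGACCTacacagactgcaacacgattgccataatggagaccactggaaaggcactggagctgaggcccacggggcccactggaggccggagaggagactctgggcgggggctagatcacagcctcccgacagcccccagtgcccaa
The Hoxa13 and Hoxd13 windows held 35 and 31 CpG pairs and no match to any of the 3 motifs, while the Hoxa2 and Hoxc4 windows held 6 and 8 CpG pairs and 1 match each. Other windows did not divide this way: of genes higher in the colon, Hoxa9 had 3 CpG pairs and a Hoxd11 window had 2 with a TTTATG match, and of genes lower there, Hoxa3 and Hoxa5 had 18 and 28 and no match. CpG pairs in the 24 Hox windows ranged from 2 to 35 with a median of 12.5, against a median of 6 over 32851 promoter windows of the same length. TTTATG was present in 20.8% of Hox windows and 10.8% of all windows, TGATTNAT in 8.33% and 2.82%, and AGGTCA in 25% and 14%. TGATTNAT with T at its open position shares letters with TTTATG, so a stretch can match both, but no Hox window held both. A match is a description of letters only.

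Among anterior genes, Hoxa2, which patterns the hindbrain and the skeleton of the pharyngeal arches, was lower in the colon in both fractions. Its CPM was 10.8, 12.2 and 6.27 in small intestinal GFP-negative libraries and 0.587, 0.343 and 0.633 in colonic GFP-negative libraries, and 10.4, 4.04 and 12.6 and 0.44, 1.06 and 0.457 in the GFP-positive libraries of the same tissues. All 6 small intestinal libraries lay above all 6 colonic ones. The colon was 18.4-fold lower in GFP-negative cells (log2 difference -4.21 ± 0.60 (SE), adjusted p = 0.00341) and 13.7-fold lower in GFP-positive cells (log2 difference -3.78 ± 0.59 (SE), adjusted p = 0.0027). Both calls held in each of the 12 fits that left out 1 library.

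Hoxa3, needed for the thymus and parathyroid, kept a measurable level in the colon. It was at 19, 12.7 and 9.33 CPM against 2.2, 4.11 and 4.94 CPM in GFP-negative cells, and at 20.3, 9.46 and 14.6 against 4.18, 4.09 and 5.14 CPM in GFP-positive cells, small intestine first. The ranges did not overlap, and the colon was 3.63-fold (log2 difference -1.86 ± 0.41 (SE), adjusted p = 0.0253) and 3.3-fold lower (log2 difference -1.72 ± 0.40 (SE), adjusted p = 0.0275). Hoxa4 fell further, from 5.17, 13.6 and 6.27 CPM to 0.88, 0.228 and 0 CPM in GFP-negative cells (log2 difference -4.5 ± 0.93 (SE), adjusted p = 0.0199). In GFP-positive cells Hoxa4 went from 6.41, 9.17 and 8.98 to 0.44, 1.06 and 0.114 CPM (log2 difference -3.92 ± 0.89 (SE), adjusted p = 0.0239). Neither tissue range overlapped the other for Hoxa4. The Hoxa3 call ended without small intestinal GFP-negative replicate 1 or any of the colonic GFP-negative libraries (highest adjusted p 0.0932), and in GFP-positive cells without small intestinal replicate 1 or 3 or any colonic GFP-positive library (highest 0.12). The Hoxa4 call ended without colonic GFP-negative replicate 2 or 3 (highest 0.101), and in GFP-positive cells without any small intestinal GFP-positive library or colonic replicate 1 or 3 (highest 0.101). The Hoxa4 fold of GFP-negative cells, 22.7, was 15 without colonic GFP-negative replicate 3, and without replicate 1 the pooled ratio was 73.2 (counting interval 20.0 to 608). The GFP-positive fold, 15.1, was 27.9 without colonic GFP-positive replicate 2.

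In HoxB, 3 anterior genes were called lower in the colon in GFP-negative cells, and 1 of them, Hoxb2, also in GFP-positive cells. Hoxb2, which acts in the hindbrain, was at 10.7, 13.9 and 7.24 CPM in small intestinal and 2.35, 2.51 and 1.27 CPM in colonic GFP-negative cells (log2 difference -2.37 ± 0.41 (SE), adjusted p = 0.00844). In GFP-positive cells it was at 7.65, 10.6 and 14.1 and 3.63, 3.3 and 4.11 CPM (log2 difference -1.54 ± 0.39 (SE), adjusted p = 0.0418). The tissues did not overlap in either fraction, but the GFP-positive call held in only 3 of the 12 fits that left out 1 library (highest adjusted p 0.171, without colonic GFP-positive replicate 2). It ended without small intestinal GFP-negative replicate 1, colonic GFP-negative replicate 1 or 2 or any of the 6 GFP-positive libraries, and the GFP-negative call ended without colonic GFP-negative replicate 3 (adjusted p 0.0525).

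Hoxb3 was at 21.6, 14.8 and 13.2 CPM in small intestinal GFP-negative cells against 2.79, 1.6 and 1.14 CPM in colonic GFP-negative cells, 9.0-fold lower (log2 difference -3.17 ± 0.51 (SE), adjusted p = 0.00563). In GFP-positive cells the values were 18.3, 4.83 and 16.1 and 8.57, 6.21 and 7.43 CPM, and small intestinal replicate 2 lay below all 3 colonic libraries (log2 difference -0.82 ± 0.46 (SE), adjusted p = 0.422). Hoxb4, known for expanding blood stem cells, showed the same layout, with 33.1, 22.7 and 9.33 against 3.37, 3.31 and 1.39 CPM in GFP-negative cells (log2 difference -3.01 ± 0.50 (SE), adjusted p = 0.00652) and 12, 9.56 and 16.1 against 10.4, 5.94 and 6.74 CPM in GFP-positive cells (log2 difference -0.70 ± 0.45 (SE), adjusted p = 0.51). The GFP-negative ranges were apart for both genes and the GFP-positive ranges overlapped. The test of the difference between fractions gave log2 difference 2.35 ± 0.67 (SE), adjusted p = 0.0941 for Hoxb3 and log2 difference 2.31 ± 0.66 (SE), adjusted p = 0.0941 for Hoxb4, neither past the threshold. Hoxb3 shares 52.9% of its exon bases with the opposite-strand gene Hoxb3os, and Hoxb2 shares 27.3%. The sources used here do not say whether counting used strand, so reads of these genes and Hoxb3os may not be separable.

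Hoxc4, a gene that also regulates antibody class switching in B cells, was close to absent from the colon. Its CPM was 7.45, 16.8 and 8.04 in small intestinal GFP-negative and 6.49, 12.1 and 8.74 in small intestinal GFP-positive libraries. The colonic values were 0.147, 0 and 0.253 and 0.44, 0 and 0.686, from 3 counts in all in GFP-negative cells and 10 in GFP-positive cells. The GFP-negative ratio of pooled CPM, small intestine over colon, was 88.6 (counting interval 29.99 to 432) with adjusted p = 0.00404, and the GFP-positive fit gave log2 difference -4.52 ± 0.82 (SE), adjusted p = 0.00716. Both calls held in all 12 fits that left out 1 library. The GFP-negative ratio was 176 (counting interval 31.4 to 6990) without colonic GFP-negative replicate 3 and 55.5 (counting interval 18.8 to 271) without replicate 2. Without colonic GFP-positive replicate 3 the GFP-positive fold of 22.9 became 36.3.

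In HoxD no anterior gene differed between the tissues by the test. Hoxd4, which patterns neck vertebrae, was at 5.65, 3.45 and 1.29 CPM in small intestinal and 2.64, 3.2 and 2.28 CPM in colonic GFP-negative cells, with overlapping ranges. In GFP-positive cells it was at 7.07, 7.79 and 2.83 and 18.5, 13.9 and 13.7 CPM (log2 difference 1.37 ± 0.49 (SE), adjusted p = 0.17). Those GFP-positive ranges were apart with the colon higher, but the difference did not pass. Hoxd4 shares 39.1% of its exon bases with the same-strand gene model Gm28230, so its counts may be split between the gene models. Hoxd3 had 0 to 17 counts per library, and it shares 53.1% of its exon bases with that model.

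**Figure D3:**
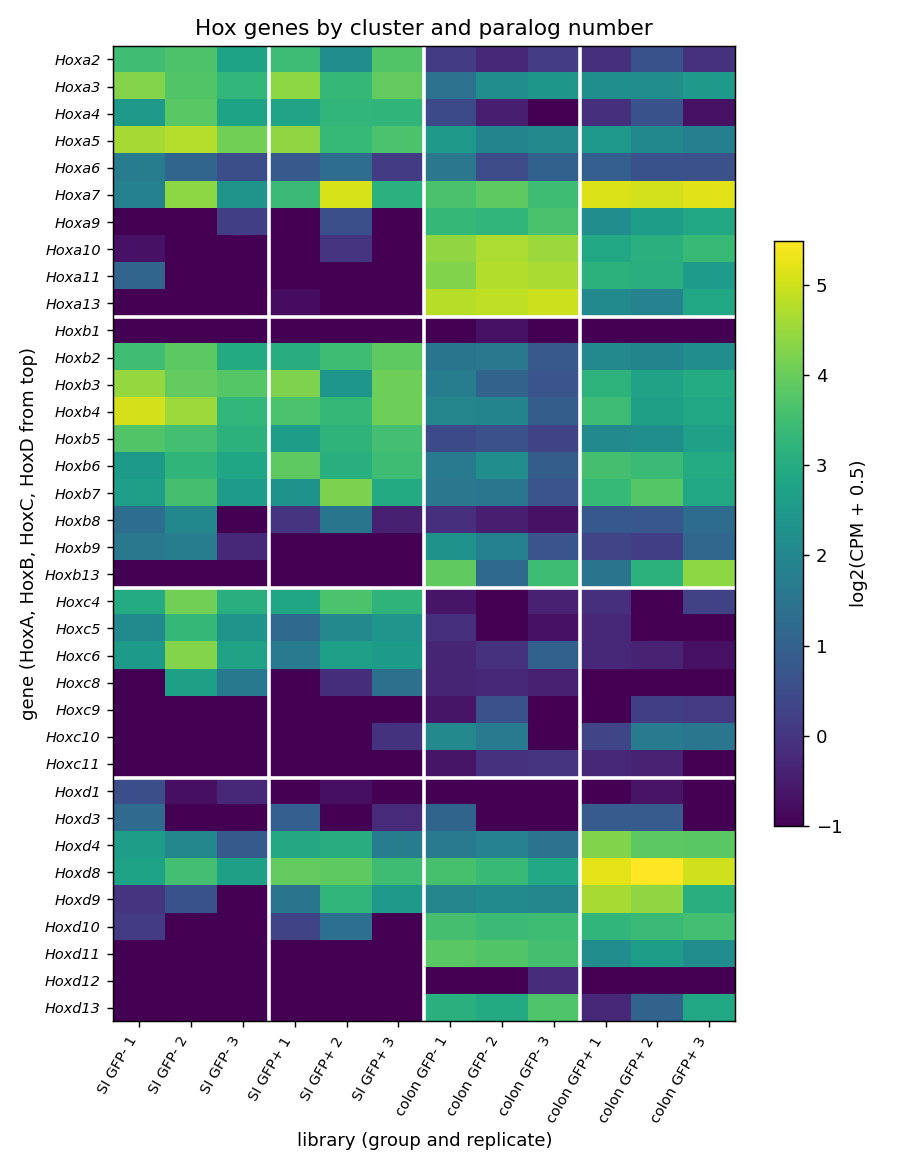
Each row is 1 of 36 Hox genes, ordered by cluster and paralog number, each column a library, and the colour is log2(CPM + 0.5). The rows Hoxa9 to Hoxa13, Hoxd10 and Hoxd11 are darker in the 6 small intestinal columns than in the 6 colonic ones. The upper rows of HoxC show the opposite. Hoxd9 is not dark in small intestinal GFP-positive columns, Hoxd12 is dark throughout, and Hoxd13 is dark in part of the colonic GFP-positive columns.

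Among middle genes, Hoxa5, which is required for airway and lung development, was the Hox gene with the highest mean level per transcript length in small intestinal GFP-negative cells. Its CPM there was 23.8, 26.4 and 16.7, against 5.13, 3.31 and 3.67 in colonic GFP-negative cells (log2 difference -2.47 ± 0.37 (SE), adjusted p = 0.00387). In GFP-positive cells it was 20.9, 9.66 and 12 in the small intestine and 4.94, 3.57 and 2.97 in the colon (log2 difference -1.89 ± 0.36 (SE), adjusted p = 0.00967). Every small intestinal library was above every colonic one. The GFP-positive call ended without colonic GFP-positive replicate 2 or 3 (highest adjusted p 0.0556).

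Hoxb5, known for driving Ret in enteric neural crest, was the middle HoxB gene with the widest tissue gap. It was at 12.7, 11.2 and 8.52 CPM in small intestinal GFP-negative cells and 0.88, 1.03 and 0.76 CPM in colonic GFP-negative cells, 12-fold lower in the colon (log2 difference -3.58 ± 0.42 (SE), adjusted p = 0.00124). In GFP-positive cells the values were 5.66, 8.87 and 11.1 and 3.74, 4.23 and 6.06 CPM (log2 difference -0.87 ± 0.37 (SE), adjusted p = 0.254), and colonic replicate 3 lay above small intestinal replicate 1. Hoxb5 was the only Hox gene whose GFP difference was called unlike between the tissues (log2 difference 2.72 ± 0.55 (SE), adjusted p = 0.0266). In that test 1.16% of all tested genes were called higher and 0.895% lower, so 1 of 37 Hox genes is a share of the same order as the background. By edgeR 0 Hox genes were called lower and 0 had an unadjusted p under 0.05 in that direction, and DESeq2 and limma-voom also called 0 lower. The Hoxb5 call ended with limma-voom, with limma on log2(TPM + 1), with the replicate number as a block and in 8 of 12 fits that left out 1 library: small intestinal GFP-negative replicate 1, small intestinal GFP-positive replicates 1 and 3, any colonic GFP-negative library and colonic GFP-positive replicates 2 and 3 (highest adjusted p 0.085).

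Hoxc5 and Hoxc6 repeated the layout of Hoxc4. Hoxc5 was at 3.73, 9.5 and 4.66 and 1.83, 3.65 and 4.72 CPM in small intestinal GFP-negative and GFP-positive cells. The colonic libraries held 3, 0 and 1 counts in GFP-negative and 3, 0 and 0 counts in GFP-positive cells. The test gave log2 difference -4.96 ± 1.14 (SE), adjusted p = 0.0319 in GFP-negative cells, and in GFP-positive cells the ratio of pooled CPM, small intestine over colon, was 27.4 (counting interval 9.1 to 135) with adjusted p = 0.0366. Hoxc6 was at 5.29, 18.9 and 6.11 against 0.293, 0.457 and 1.52 CPM in GFP-negative cells (log2 difference -3.71 ± 0.75 (SE), adjusted p = 0.0177), and at 2.75, 5.81 and 5.32 against 0.33, 0.264 and 0.114 CPM in GFP-positive cells (log2 difference -4.21 ± 0.81 (SE), adjusted p = 0.0102). The tissues did not overlap for either gene, and small intestinal GFP-negative replicate 2 was highest for both. The Hoxc5 call ended without small intestinal GFP-negative replicate 2 or colonic GFP-negative replicate 2 or 3 (highest adjusted p 0.154), and in GFP-positive cells without any small intestinal GFP-positive library, colonic GFP-negative replicate 3 or colonic GFP-positive replicate 2 or 3 (highest 0.145). The Hoxc6 call ended without colonic GFP-negative replicate 1 or 2 (highest 0.097), and in GFP-positive cells without colonic GFP-positive replicate 3 (0.0606). The Hoxc6 fold of GFP-negative cells, 13.1, was 25.3 without colonic GFP-negative replicate 3 and 7.33 without small intestinal GFP-negative replicate 2. The Hoxc5 fold of that fraction, 31, was 20.2 without colonic replicate 2, and without colonic replicate 1 the pooled ratio was 104 (counting interval 18.4 to 4146). In GFP-positive cells the small intestine was at least 17.6-fold higher without colonic replicate 1, whose 3 counts were the only ones of its group.

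Hoxd8 was the exception among middle genes, since it was the only one called higher in the colon, and only in GFP-positive cells. Its CPM was 6.25, 11.2 and 5.95 in small intestinal and 11.6, 10.1 and 6.71 in colonic GFP-negative cells (log2 difference 0.27 ± 0.30 (SE), adjusted p = 0.723). In GFP-positive cells it was 14.8, 14.3 and 10.6 in the small intestine and 36.5, 44.2 and 31.9 in the colon, 2.83-fold higher (log2 difference 1.5 ± 0.30 (SE), adjusted p = 0.0122). The GFP-positive ranges were far apart and the GFP-negative ranges overlapped, yet the difference between fractions did not pass (log2 difference 1.23 ± 0.42 (SE), adjusted p = 0.178). The call ended without small intestinal GFP-positive replicate 3 or colonic GFP-positive replicate 2 (highest adjusted p 0.067).

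Hoxb6 and Hoxb7 were not called between the tissues. Hoxb6 was at 5.29, 8.98 and 6.59 and 2.64, 4.11 and 1.39 CPM in GFP-negative cells of small intestine and colon (log2 difference -1.35 ± 0.42 (SE), adjusted p = 0.0982), and at 14.1, 7.98 and 10.5 and 11.4, 10.2 and 7.43 CPM in GFP-positive cells. Hoxb7 was at 5.77, 11.4 and 5.47 and 2.49, 2.4 and 1.14 CPM in GFP-negative cells (log2 difference -1.91 ± 0.56 (SE), adjusted p = 0.0788), and at 4.49, 17.9 and 7.32 and 9.67, 13.1 and 6.86 CPM in GFP-positive cells. For both genes the GFP-negative ranges were apart and the GFP-positive ranges overlapped.

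Of the genes called in none of the 5 comparisons, Hoxa7 was by far the most abundant and Hoxa6 came next. Hoxa7 had 3.13, 20.4 and 4.66 and 10.1, 33.6 and 8.27 CPM in small intestinal GFP-negative and GFP-positive cells and 11.9, 14.2 and 10.5 and 34.8, 32.5 and 36.1 CPM in the colonic ones. Small intestinal replicate 2 was the highest of its group in both fractions, and in GFP-positive cells it lay within the colonic range. The tissue tests of Hoxa7 gave log2 difference 0.36 ± 0.66 (SE), adjusted p = 0.847 in GFP-negative and log2 difference 0.99 ± 0.65 (SE), adjusted p = 0.517 in GFP-positive cells. Hoxa6 was at 2.89, 1.67 and 0.965 CPM in small intestinal and 2.49, 0.914 and 1.52 CPM in colonic cells without GFP, and at 1.25, 1.97 and 0.591 and 1.43, 1.06 and 1.03 CPM in those with GFP. The tissues overlapped in both fractions for Hoxa6. Hoxa7 shares 20.4% of its exon bases with the opposite-strand gene Hoxaas3.

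Most posterior genes were at or near 0 in the small intestine, with Hoxb9 in GFP-negative and Hoxd9 in GFP-positive cells as exceptions. Of the 14, Hoxb13, Hoxc9, Hoxc11, Hoxd11, Hoxd12 and Hoxd13 had no count in any small intestinal library. These genes could pass the filter on low counts only through colonic libraries, so a call on them was bound to point to the colon. The same holds for Hoxa9, Hoxa10, Hoxa11, Hoxa13, Hoxc10 and Hoxd10, whose few small intestinal counts could not pass the filter. A count of 0 over the 3 libraries of a group allows up to 3 counts, or 0.124 CPM in small intestinal GFP-negative and 0.0979 CPM in small intestinal GFP-positive cells, and this floor was used for lower bounds of folds.

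Hoxa13, needed for the hindgut, the genital tract and the digits, had the highest mean level per transcript length of the Hox genes in colonic GFP-negative cells. Its CPM was 27.3, 28.8 and 31 in colonic GFP-negative and 3.74, 3.17 and 6.74 in colonic GFP-positive libraries. In the small intestine it had 0 counts in GFP-negative and 1, 0 and 0 counts in GFP-positive libraries. The colon was at least 234-fold higher in GFP-negative cells (adjusted p = 0.000162), and the ratio in GFP-positive cells was 141 (counting interval 24.8 to 5615) (adjusted p = 0.000802). Both calls held in all 12 fits that left out 1 library.

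Hoxa10 and Hoxa11, both known for patterning the uterus, followed. Hoxa10 was at 20.7, 25 and 22.2 CPM in colonic GFP-negative and 6.81, 8.19 and 9.94 CPM in colonic GFP-positive cells. The small intestine held 1, 0 and 0 counts in GFP-negative and 0, 5 and 0 counts in GFP-positive libraries. The GFP-negative ratio, colon over small intestine, was 549.6 (counting interval 98.2 to 21750) (adjusted p = 0.00124), and the GFP-positive fit gave log2 difference 5.54 ± 0.82 (SE), adjusted p = 0.00223, with all 5 small intestinal counts from replicate 2. The fold, 46.6, was 30.3 without small intestinal GFP-positive replicate 1, while without replicate 2 that group was at 0 and the colon at least 56.7-fold higher. The single GFP-negative count came from replicate 1, without which the bound was at least 120-fold, and both calls held in all 12 fits that left out 1 library. Hoxa11 was at 18.6, 26 and 24.7 CPM in colonic GFP-negative and 8.46, 8.06 and 5.37 CPM in colonic GFP-positive cells. It had 14, 0 and 0 counts in small intestinal GFP-negative and 0 counts in GFP-positive libraries. The colon was 39.3-fold higher in GFP-negative (log2 difference 5.3 ± 1.05 (SE), adjusted p = 0.0259) and at least 74.3-fold higher in GFP-positive cells (adjusted p = 0.0115). All 14 counts came from small intestinal GFP-negative replicate 1, without that library the colon was at least 123-fold higher, and the fold was 25.6 without small intestinal GFP-negative replicate 2. The GFP-negative call of Hoxa11 ended without any colonic GFP-negative library or colonic GFP-positive replicate 2 (highest adjusted p 0.0959), with no filter on low counts and with only the compared libraries in the fit. The GFP-positive call ended with no filter on low counts. Hoxa11 shares 35.0% of its exon bases with the opposite-strand gene Hoxa11os.

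Hoxa9, a gene known from myeloid leukaemia, was at 9.39, 9.14 and 11.9 CPM in colonic GFP-negative and 4.07, 5.68 and 6.86 CPM in colonic GFP-positive cells. Small intestinal libraries held 0, 0 and 4 and 0, 10 and 0 counts in the same order. The ranges were apart in both fractions, and the GFP-negative difference passed (log2 difference 5.68 ± 1.36 (SE), adjusted p = 0.0394) while the GFP-positive one did not (log2 difference 4.01 ± 1.22 (SE), adjusted p = 0.0956). All 4 GFP-negative counts of the small intestine came from replicate 3, the library with the high leukocyte markers. The part of those cells in the result was not tested, and without that library the small intestinal GFP-negative level was 0 and the colon at least 60.5-fold higher. The fold, 51.4, was 33 without small intestinal GFP-negative replicate 2. The call ended in 8 of the 12 fits that left out 1 library: small intestinal GFP-negative replicate 1 or 2, any colonic GFP-negative or any colonic GFP-positive library (highest adjusted p 0.131).

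In HoxD, which patterns limbs and the caudal end of the body, Hoxd11 had the most stable calls. It was at 13.8, 12.8 and 11.4 CPM in colonic GFP-negative and 4.07, 5.68 and 4.0 CPM in colonic GFP-positive cells and at 0 in all 6 small intestinal libraries. The colon was at least 101-fold (adjusted p = 0.00124) and 46.2-fold higher (adjusted p = 0.00116), and both calls held in all 12 fits that left out 1 library. Hoxd13, the digit and anorectal gene, was at 8.21, 7.31 and 12.5 CPM in colonic GFP-negative and 0.33, 1.58 and 6.74 CPM in colonic GFP-positive cells. Small intestinal libraries were all at 0, so the colon was at least 75-fold (adjusted p = 0.0186) and 29.7-fold higher (adjusted p = 0.0277). The Hoxd13 call ended without colonic GFP-negative replicate 2 or 3 (highest 0.068), and in GFP-positive cells without any small intestinal GFP-positive library, colonic GFP-negative replicate 1 or 3 or colonic GFP-positive replicate 2 or 3 (highest 0.0814).

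In the colon Hoxd10 did not separate the fractions, with 11.4, 10.2 and 10.6 CPM without GFP and 9.12, 10.2 and 11.1 CPM with GFP. Small intestinal libraries held 5, 0 and 0 counts in GFP-negative and 9, 21 and 0 counts in GFP-positive cells. The test gave log2 difference 5.61 ± 1.16 (SE), adjusted p = 0.0217 in GFP-negative and log2 difference 3.39 ± 0.97 (SE), adjusted p = 0.0775 in GFP-positive cells. The GFP-negative call ended without colonic GFP-negative replicate 2 or 3 (highest adjusted p 0.0698). All 5 small intestinal GFP-negative counts came from replicate 1, without which the colon was at least 56.3-fold higher, and the fold, 48.8, was 31.7 without replicate 2 of that group.

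Hoxb13, the posterior end of HoxB and a gene of the prostate and hindgut, was uneven among colonic libraries. Its CPM was 14.4, 1.83 and 10.6 in colonic GFP-negative and 2.31, 8.45 and 20.5 in colonic GFP-positive libraries, and 0 in all 6 small intestinal ones. The colon was at least 67.8-fold higher in GFP-negative (adjusted p = 0.0258) and at least 106-fold higher in GFP-positive cells (adjusted p = 0.0156). Epithelial markers summed to 2901, 1249 and 2656 CPM in the colonic GFP-negative libraries and 391, 751 and 2164 CPM in the GFP-positive ones. Of the 14 posterior genes, 2 had the same order as these markers over the 3 GFP-negative libraries (Hoxb13 and Hoxd10) and 5 over the 3 GFP-positive libraries (Hoxa9, Hoxa10, Hoxb13, Hoxd10 and Hoxd13). Of all 37 Hox genes, 5 and 6 had it. All 10 epithelial markers had counts in every colonic library, and their part in these results was not tested. The Hoxb13 call ended without small intestinal GFP-negative replicate 1, colonic GFP-negative replicate 1 or 3 or colonic GFP-positive replicate 2 (highest adjusted p 0.0808), and in GFP-positive cells without small intestinal GFP-positive replicate 1 (0.0549).

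**Figure D4:**
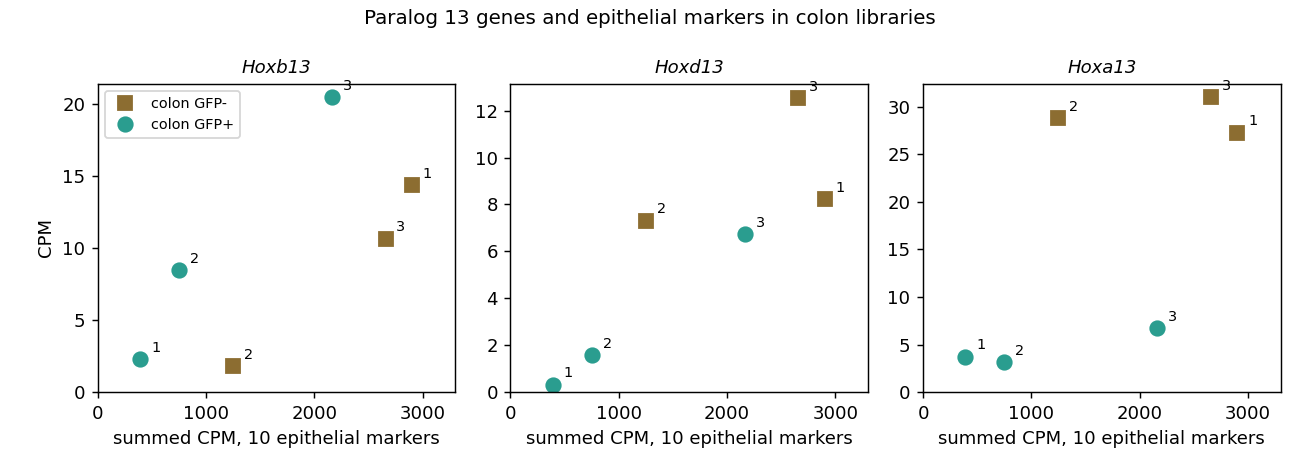
For the 3 paralog 13 genes, each point is a colonic library with the summed CPM of 10 epithelial markers on the x axis and the gene's CPM on the y axis, and the digit beside it is the replicate. Hoxb13 is highest, at 20.5 CPM, in the GFP-positive library with the highest epithelial sum of that fraction. Among GFP-positive libraries, Hoxa13 and Hoxd13 are highest in that library too. The 3 Hoxa13 values of GFP-negative cells lie between 27.3 and 31 CPM across epithelial sums of 1249 to 2901.

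Hoxb9, which acts in thoracic ribs and the mammary gland, was the posterior gene with counts in all 3 small intestinal GFP-negative libraries. It was at 2.52, 2.82 and 0.322 CPM in small intestinal GFP-negative cells and at 0 in all 3 small intestinal GFP-positive libraries. In the colon it was at 4.4, 3.08 and 1.14 CPM in the negative and 0.769, 0.66 and 1.71 CPM in the positive fraction. In GFP-positive cells the colon was at least 10.8-fold higher (adjusted p = 0.0363), and in GFP-negative cells the tissues overlapped (log2 difference 0.59 ± 0.94 (SE), adjusted p = 0.819). The GFP-positive call held in 4 of 12 fits that left out 1 library and ended without any of the 6 GFP-positive libraries or colonic GFP-negative replicate 1 or 2 (highest adjusted p 0.103).

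The GFP-positive and GFP-negative fractions were then compared within each tissue, with no pairing of libraries in the main fit. In the small intestine 1 of 37 Hox genes was higher in GFP-positive cells and 1 was lower. The background was 4.24% of all tested genes higher and 6.63% lower, so the Hox counts were no larger than the background. The gene that rose was Hoxd9, at 0.481, 1.04 and 0 CPM without GFP and 2.33, 9.07 and 5.08 CPM with GFP, with no overlap (log2 difference 3.3 ± 0.77 (SE), adjusted p = 0.0154). The gene that fell was Hoxb9, whose 50 counts in GFP-negative cells against 0 put GFP-positive cells at least 21.2-fold lower (adjusted p = 0.0106). Hoxb9 and Hoxd9 share a paralog number, but with 1 call in each direction no pattern by number can be read. With the replicate number as a block, 2 genes were higher (Hoxa7 added) and 2 lower (Hoxa11 added), and limma-voom called 0 in each direction (2 higher and 2 lower at an unadjusted p under 0.05). The Hoxd9 call ended without small intestinal GFP-negative replicate 1 or GFP-positive replicate 2 (highest adjusted p 0.0605), and 3 genes were higher and 2 lower without GFP-negative replicate 2, where the Hoxd9 fold of 9.87 became 19.8. The median GFP difference in mean log2(CPM + 0.5) was -0.09 for anterior, -0.40 for middle and 0 for posterior genes, and -0.03 over all genes.

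In the colon, 6 of the 37 Hox genes were higher in GFP-positive cells (Hoxb3, Hoxb5, Hoxb6, Hoxb7, Hoxd4 and Hoxd8), against 4.62% of all tested genes, and 1 was lower (Hoxa13), against 4.06% of all tested genes. No HoxC gene was called, and no posterior gene was called higher by edgeR, while DESeq2 called 1 and limma-voom 0 (1 at an unadjusted p under 0.05 by edgeR and by limma-voom). The median difference was 0.34 for anterior, 1.35 for middle and -0.58 for posterior genes, and 0 over all genes. Its rank correlation with paralog number was -0.443 over the 37 genes, against 0.18 in the small intestine, both as descriptions. The difference between tissues was tested gene by gene and called by edgeR for Hoxb5 only.

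**Figure D5:**
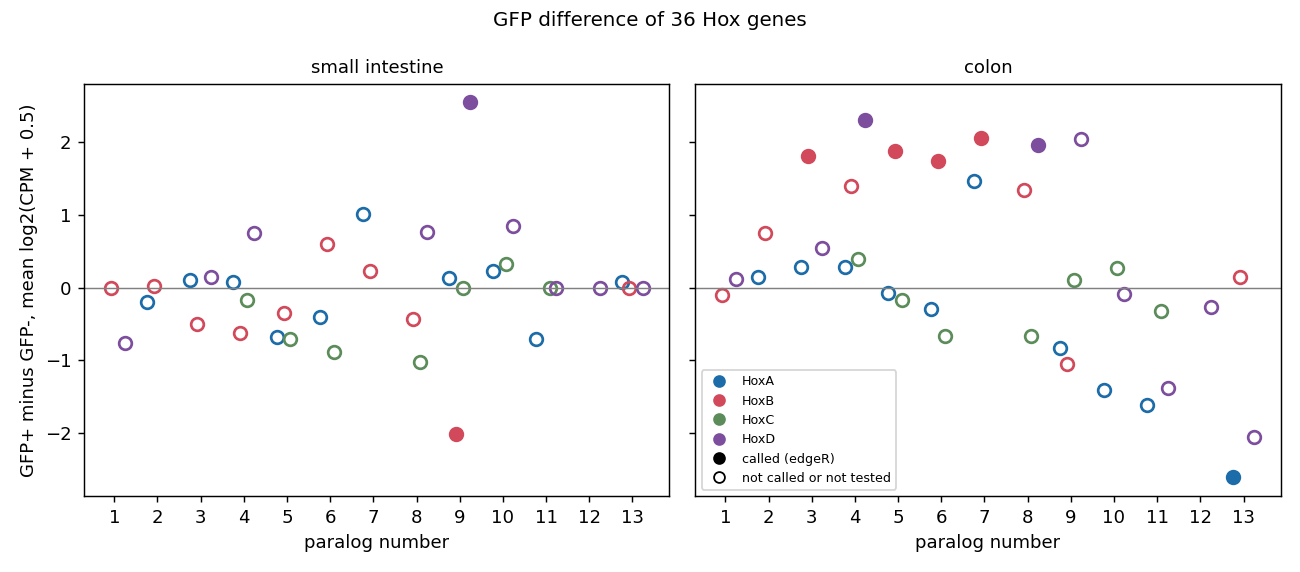
Each point is 1 of 36 Hox genes, with its paralog number on the x axis and the GFP-positive minus GFP-negative difference in mean log2(CPM + 0.5) on the y axis, coloured by cluster and filled where edgeR called it. In the colon the filled HoxB and HoxD points lie above 0 and Hoxa13 below it, and in the small intestine only Hoxd9 and Hoxb9 are filled.

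The higher calls of Hoxd8 and Hoxd4 held in all 12 fits that left out 1 library and under the 8 other alternatives. Colonic Hoxd8 was 3.97-fold higher in GFP-positive cells, from the library values given above, with no overlap (log2 difference 1.99 ± 0.31 (SE), adjusted p = 0.00152). Hoxd4 was 5.64-fold higher (log2 difference 2.5 ± 0.52 (SE), adjusted p = 0.00923), also with no overlap. Hoxd9 ranged from 3.37 to 3.77 CPM in colonic GFP-negative cells and was at 24.4, 20.9 and 8.0 CPM in GFP-positive cells, where replicate 3 was the lowest of the group (log2 difference 2.33 ± 0.69 (SE), adjusted p = 0.0557), so this difference did not pass.

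The HoxB genes of numbers 3 to 7 lay higher in colonic GFP-positive cells without overlap of their ranges, and so did Hoxb2. Hoxb2 was not called (log2 difference 0.85 ± 0.40 (SE), adjusted p = 0.273), nor was Hoxb8, also higher (log2 difference 2.41 ± 1.32 (SE), adjusted p = 0.361). The share of all genes without such an overlap was not counted, so the lack of overlap is a description only. Hoxb5 was 5.18-fold higher (log2 difference 2.37 ± 0.41 (SE), adjusted p = 0.00292), and its call held in all 12 fits that left out 1 library. Hoxb7 was 4.88-fold higher (log2 difference 2.29 ± 0.56 (SE), adjusted p = 0.0221). Hoxb3 was 4.03-fold higher (log2 difference 2.01 ± 0.50 (SE), adjusted p = 0.0228). Hoxb6 was 3.54-fold higher (log2 difference 1.82 ± 0.43 (SE), adjusted p = 0.0168), and Hoxb4 gave log2 difference 1.52 ± 0.48 (SE), adjusted p = 0.0753, short of the threshold. The calls of Hoxb3, Hoxb6 and Hoxb7 ended without colonic GFP-negative replicate 3 or colonic GFP-positive replicate 1 or 2 (highest adjusted p 0.101, 0.0745 and 0.104). Those of Hoxb6 and Hoxb7 also ended without colonic GFP-negative replicate 1, and those of Hoxb3 and Hoxb7 without replicate 2. The count of 6 higher genes was 3 without colonic GFP-negative replicate 3, GFP-positive replicate 1 or GFP-positive replicate 2, and 3 with limma-voom.

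Of the posterior HoxA genes, Hoxa13 alone was called between colonic fractions, in the other direction. Hoxa13 was 6.36-fold lower in colonic GFP-positive cells (log2 difference -2.67 ± 0.44 (SE), adjusted p = 0.00327), and this call held under every alternative and in all 12 fits that left out 1 library. Hoxa9, Hoxa10, Hoxa11, Hoxd11 and Hoxd13 also had all 3 GFP-positive values below all 3 GFP-negative ones but did not pass, with adjusted p = 0.734, 0.203, 0.337, 0.0929 and 0.392. How many of all genes separate in this way was not counted. By edgeR 2.7% of the 37 Hox genes were called lower, against 4.06% of all tested genes, so the Hox share was no larger than the background. DESeq2 called 3 genes lower and limma-voom 5, and 2 were lower without small intestinal GFP-negative replicate 1 or small intestinal GFP-positive replicate 2. Hoxb13 overlapped between the fractions. Beside these differences, markers of smooth muscle summed to 2957 to 3872 CPM in colonic GFP-negative and 518 to 622 CPM in GFP-positive libraries, and those of telocytes to 1984 to 2051 and 550 to 591 CPM. Lymphatic markers ran the other way, from 205 to 335 CPM up to 18003 to 21049 CPM. The part of these cell types in the Hox differences was not tested.

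On a scale per transcript length, the leading Hox genes changed with the group. The unit here is TPM, a measure per transcript length, rescaled to the same total over protein-coding genes in every library, as mean ± SD of 3 libraries. Small intestinal GFP-negative cells had Hoxa5 at 24.7 ± 5.72, Hoxc6 at 22.8 ± 16 and Hoxb4 at 17.2 ± 10.2. Small intestinal GFP-positive cells had Hoxd8 at 27.4 ± 13.9, Hoxa7 at 15.5 ± 11.4 and Hoxb7 at 15 ± 9.61. The SDs of neighbours in these orders overlap, so the ranks within a small intestinal group are not resolved. Colonic GFP-negative cells had Hoxa13 at 38.8 ± 8.89, Hoxa10 at 27.1 ± 3.86 and Hoxd8 at 23.2 ± 0.436. The libraries of Hoxa13 (29.9 to 47.7) and Hoxa10 (24.1 to 31.5) overlapped there, so their order is not resolved either. In colonic GFP-positive cells Hoxd8 led with 69.1 ± 16.4, its lowest library (51.1) above the highest of Hoxa7 (39.9), which followed at 35.3 ± 4.12.

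The remaining 9 Hox genes, Hoxd3 among them, were low. Hoxb8 reached 3.55 CPM and Hoxc8 5.95 CPM, each with its highest value in small intestinal GFP-negative replicate 2. Hoxc10 had 0 to 25 counts per colonic library and 4 counts in all in the small intestine. Hoxb1 had 1 count in all, Hoxd12 had 3, and Hoxd1, Hoxc9 and Hoxc11 had at most 9 counts in any library. Hoxc10 in colonic GFP-negative cells was at least 16.4-fold above the small intestine in pooled counts but was not called (adjusted p = 0.116). Hoxb1, Hoxc9, Hoxc11, Hoxd1 and Hoxd12 had too few counts to be tested. Pooled counts of Hoxc9 were at least 3.42-fold and at least 4.02-fold higher in the colon in GFP-negative and GFP-positive cells, and those of Hoxd1 at least 3.57-fold lower in GFP-negative cells.

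Genes that act with or upstream of Hox proteins were examined as lists. The Pbx and Meis genes encode homeodomain partners that bind DNA together with Hox proteins, and 8 of 9 in this list were tested. Between the tissues 0 were called by edgeR in either fraction, with 3 lower in GFP-positive and 1 higher in GFP-negative cells at an unadjusted p under 0.05. DESeq2 called 1 lower in GFP-positive and 1 higher in GFP-negative cells, and limma-voom called 1 higher in GFP-negative cells. Between GFP fractions, 3 rose in the small intestine (median log2 difference of the 8 genes 0.34, against -0.03 over all genes tested) and 2 rose and 1 fell in the colon (0.40 against -0.03). Of all tested genes, 4.24% were called higher between small intestinal fractions, and 4.62% higher and 4.06% lower between colonic ones. Meis2 was at 57, 29.1 and 33.1 and 131, 92.6 and 109 CPM in small intestinal GFP-negative and GFP-positive cells (log2 difference 1.48 ± 0.24 (SE), adjusted p = 0.00209), and at 46.1, 38.3 and 44.2 and 120.3, 117 and 103 CPM in the colonic ones (log2 difference 1.41 ± 0.24 (SE), adjusted p = 0.00279). Pbx3 rose in the small intestine (log2 difference 1.85 ± 0.30 (SE), adjusted p = 0.00194), and Pknox2 fell in the colon (log2 difference -1.91 ± 0.37 (SE), adjusted p = 0.00554).

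The caudal genes Cdx1 and Cdx2 encode homeodomain factors that act upstream of Hox genes in the embryo and define intestinal epithelium in the adult. Cdx1 was at 13.3, 4.91 and 18.4 CPM in colonic GFP-negative, 3.96, 7.13 and 14.9 in colonic GFP-positive and 1.8, 1.36 and 7.88 in small intestinal GFP-negative cells, and at 0 in all 3 small intestinal GFP-positive libraries. In GFP-positive cells the colon was at least 88.4-fold higher (adjusted p = 0.00378). Cdx2 was at 12.2, 7.31 and 7.73 CPM in colonic GFP-negative, 0.659, 2.38 and 1.6 in colonic GFP-positive and 3.49, 1.36 and 2.73 in small intestinal GFP-negative cells, and at 0 in small intestinal GFP-positive cells, at least 15.3-fold below the colon (adjusted p = 0.00432). In GFP-negative cells edgeR called 0 of the 2 between tissues, with both higher at an unadjusted p under 0.05, and DESeq2 and limma-voom called 1 each. In GFP-positive cells DESeq2 called both and limma-voom 0. Both were lower in GFP-positive cells of the small intestine, by at least 32.6-fold and 25-fold (adjusted p = 0.00478 and 0.00138). Cdx1 had the order of the epithelial marker sums in the 3 colonic GFP-positive libraries and in small intestinal GFP-negative libraries, and the part of epithelial RNA was not tested.

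Noncoding genes inside the clusters were listed as well. Of 20 listed, 10 were found in the table and 6 were tested, with 1 higher and 2 lower in the colon in GFP-positive cells, 1 higher in GFP-negative cells and 1 lower in GFP-positive than GFP-negative cells of the colon. The background was 2.75% higher and 1.81% lower, 2.2% higher and 4.06% lower of all tested genes in the same order, and limma-voom called 0 lower between tissues in GFP-positive cells. Hoxa11os, antisense to Hoxa11, was at 11.9, 18.2 and 15.3 CPM in colonic GFP-negative and 1.76, 4.62 and 3.43 CPM in colonic GFP-positive cells, with 1 count in all in the small intestine. The colon was at least 32.5-fold higher in GFP-positive cells (adjusted p = 0.00163), and the GFP-negative ratio was 371 (counting interval 66.1 to 14689) (adjusted p = 0.00124). It was also lower in colonic GFP-positive than GFP-negative cells (log2 difference -2.21 ± 0.56 (SE), adjusted p = 0.0327). Hotairm1, at the anterior end of HoxA, was at 1.75, 4.43 and 2.24 CPM in small intestinal and 0.22, 0.264 and 0.343 CPM in colonic GFP-positive cells (log2 difference -3.28 ± 0.83 (SE), adjusted p = 0.0425). Hoxaas2, which overlaps Hoxa3, was at 3.58, 4.43 and 4.02 and 0.44, 0 and 0 CPM there (adjusted p = 0.027), with 4 counts in all in that colonic group. Hottip, transcribed from the posterior end of HoxA, had 3.08, 1.26 and 2.79 CPM in colonic GFP-negative cells and no count in any small intestinal library, and edgeR did not call it.

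Retinoic acid is a classic inducer of anterior Hox genes. Of 15 listed genes of its synthesis, breakdown and receptors, 11 were tested. In the colon 5 were lower in GFP-positive cells (Aldh1a1, Aldh1a2, Aldh1a3 and Cyp26b1 among them) and 4 in GFP-negative cells (Rarb, Aldh1a2 and Aldh1a3 among them). The median log2 difference of the 11 genes was -1.52 in GFP-positive and -1.12 in GFP-negative cells, against -0.02 and -0.06 over all genes tested. Of all tested genes, 1.81% and 2.01% were called lower. None was higher by edgeR, DESeq2 or limma-voom, with 0 in GFP-positive and 1 in GFP-negative cells higher at an unadjusted p under 0.05. Aldh1a2, which makes retinoic acid, was at 115, 86.3 and 172 CPM in small intestinal and 12.9, 11.9 and 18.9 CPM in colonic GFP-positive cells (log2 difference -3.09 ± 0.37 (SE), adjusted p = 0.000956). In GFP-negative cells Aldh1a2 was at 99.4, 238 and 109 and 33.9, 36.2 and 41.3 CPM (log2 difference -2.0 ± 0.35 (SE), adjusted p = 0.00936). Aldh1a3, another enzyme of that step, gave log2 difference -2.37 ± 0.36 (SE), adjusted p = 0.00242 in GFP-positive and log2 difference -2.4 ± 0.35 (SE), adjusted p = 0.0037 in GFP-negative cells. Cyp26b1, which breaks retinoic acid down, was at 225, 386 and 71.3 CPM in small intestinal and 5.38, 0.66 and 2.74 CPM in colonic GFP-positive cells (log2 difference -6.24 ± 1.15 (SE), adjusted p = 0.0151), with no overlap. Rarb, a retinoic acid receptor, was at 31.9, 24.8 and 15.1 CPM in small intestinal and 8.21, 6.4 and 5.57 CPM in colonic GFP-negative cells (log2 difference -1.83 ± 0.44 (SE), adjusted p = 0.0401). Between fractions of the colon, Rarb (log2 difference 2.17 ± 0.44 (SE), adjusted p = 0.00868) rose in GFP-positive cells, and Aldh1a1, Aldh1a2 and Aldh1a3 fell. Aldh1a3 fell in GFP-positive cells of the small intestine too (log2 difference -2.12 ± 0.35 (SE), adjusted p = 0.00215).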

How the data were processed

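The labels give total RNA libraries of 4 groups, 3 each; per the submitters' processing notes, Salmon 1.1.0, R 3.6.1 and mm10 were used. The authors deposited whole-number estimated counts per gene and, in a second table, log2(TPM + 1) values; the deposited estimated counts needed no rounding. Whether counting used strand is not given in the sources used here. Symbols came from GENCODE M21 (31974 of 32052 identifiers matched). Genes were tested with edgeR 4.0.16 (R 4.3.3; TMM, minimum count 10 by filterByExpr, robust quasi-likelihood fit, 1 mean per group over all 12 libraries, Benjamini-Hochberg over 16757 genes, threshold 0.05). CPM are TMM-scaled, SEs are the log2 difference over the root of F, and per-length levels rescale the deposited TPM, of which protein-coding genes held 4.63% to 8.07%. Alternatives were DESeq2 1.42.0, its size factors, limma-voom and limma 3.58.1 on log2(TPM + 1), other filters, only the compared libraries, the replicate block and leaving out each library. Same-numbered small intestinal GFP-negative and GFP-positive libraries deviated together (r = 0.323, 0.179 and 0.166), so the block is given beside those results. In the colon r was 0.00933, 0.0465 and 0.0903. In both tissues, column names of the GFP-negative and GFP-positive libraries of a replicate differ only in the GFP mark and a running number. Replicate 3 of both tissues has 1 tag. The meaning of these names is not stated, and the main fit pairs no libraries. On simulated data 58% of 8-fold and 9% of 2-fold changes were recovered among 16757 genes. The Hox genes called in any of the 5 comparisons and the 3 uncalled genes with the highest CPM are given by library. Results of some genes under these rules are not reported here, and the figures show 36 Hox genes. Members and lists were chosen with earlier results of these data known. Libraries of CD31 sorts were not analysed here.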

Additional observations from a re-analysis of the deposited data

Results flagged for a closer look

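The GFP difference of Hoxb5 was not alike in the 2 tissues, by the test of the difference itself. GFP-positive minus GFP-negative was a log2 difference 2.37 ± 0.41 (SE), adjusted p = 0.00292 in the colon and a log2 difference -0.34 ± 0.36 (SE), adjusted p = 0.643 in the small intestine, and the colonic effect exceeded the small intestinal one by 2.72 ± 0.55 (SE) on the log2 scale (edgeR, adjusted p = 0.0266). All 3 colonic GFP-positive values (3.74, 4.23 and 6.06 CPM) were above the GFP-negative ones (0.88, 1.03 and 0.76 CPM), while the small intestinal values overlapped (5.66, 8.87 and 11.1 against 12.7, 11.2 and 8.52 CPM). The call ended in 8 of 12 fits that left out 1 library (highest adjusted p 0.085), with limma-voom, with limma on log2(TPM + 1) and with the replicate block (adjusted p = 0.0718), and 1 of 37 Hox genes is near the background of 1.16%. Hoxb5 shares 3.6% of its exon bases with the opposite-strand gene Hoxb5os.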

How the results depend on the processing

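No result changed sign under any alternative. Of the 45 calls on single Hox genes, DESeq2 and edgeR with DESeq2 size factors kept all 45, limma-voom and limma on log2(TPM + 1) lost 21 each, and the fits with no filter, with only the compared libraries and with the replicate block lost 4 each. A call whose gene a fit did not test is not counted as lost. That holds for Hoxb9 between small intestinal fractions with only the compared libraries. The colon against small intestine count of lower genes in GFP-positive cells, 8, was 0 with limma-voom and 2 on log2(TPM + 1). In the small intestine, the count of genes higher in GFP-positive cells, 1, was 0 with limma-voom, on log2(TPM + 1) and with only the compared libraries, and 2 with the replicate block. The count of lower genes there, 1, was 2 with DESeq2 and with the replicate block, and 0 with limma-voom, on log2(TPM + 1), with a minimum count of 30 (which removed Hoxb9) and with only the compared libraries. In the colon, the count of genes higher in GFP-positive cells, 6, was 3 with limma-voom, and the count of lower genes, 1, was 3 with DESeq2, 5 with limma-voom and on log2(TPM + 1), 4 with only the compared libraries and 2 with the replicate block. The count of genes whose GFP difference was higher in the colon, 1, was 3 with DESeq2 and with no filter and 0 with limma-voom, on log2(TPM + 1) and with the replicate block, and the count of those lower, 0, was 1 on log2(TPM + 1). The cause of these shifts was not tested.

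Leaving out 1 library at a time gave 5 to 10 higher and 2 to 8 lower genes between tissues in GFP-positive cells, 3 to 8 and 7 to 12 in GFP-negative cells, 0 to 3 and 1 to 2 between GFP fractions of the small intestine, 3 to 8 and 1 to 2 in the colon, and 0 to 2 and 0 to 0 for the difference between tissues. Medians by position were not recomputed under DESeq2, limma-voom, other filters, the replicate block or only the compared libraries, since they are descriptions of CPM; on log2(TPM + 1) the posterior medians were 0.43 in GFP-positive and 0.65 in GFP-negative cells, a scale that compresses low values. The replicate block ended the colon against small intestine calls of Hoxb2, Hoxb9 and Hoxc5 in GFP-positive cells (adjusted p = 0.0600, 0.0541 and 0.0507). Between small intestinal GFP fractions the block kept the calls of Hoxd9 and Hoxb9 and added Hoxa7 (higher) and Hoxa11 (lower). Same-numbered libraries of the 2 tissues correlated at 0.0976, 0.0281 and 0.223 (GFP-negative) and 0.0204, 0.0496 and 0.0540 (GFP-positive). Depth limits the posterior genes in the small intestine, where a level below 0.124 CPM over a group was not measurable.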

Other observations

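Of genes next to the Hox clusters but outside them, edgeR called 1 in each direction between the tissues in GFP-negative cells and 0 in GFP-positive cells. Of 18 listed neighbours 17 were in the table and 12 were tested. In GFP-positive cells 0 were called by edgeR, DESeq2 and limma-voom (1 higher at an unadjusted p under 0.05). In GFP-negative cells edgeR called 1 higher and 1 lower of the 12, against 2.2% and 2.01% of all tested genes. DESeq2 called 2 higher and 1 lower there, and limma-voom 1 each way. Skap2, beside HoxA, was lower in the colon in GFP-negative cells (log2 difference -1.64 ± 0.26 (SE), adjusted p = 0.00548), with 80.9, 46 and 53.4 CPM in the small intestine and 21.6, 17.8 and 18.4 CPM in the colon. Cbx5, near HoxC, was higher (log2 difference 0.86 ± 0.18 (SE), adjusted p = 0.0204), with 119, 86.4 and 83.5 and 170.1, 186 and 169 CPM.

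Polycomb proteins keep silent Hox genes silent, and 26 of 26 listed polycomb genes were tested. In GFP-positive cells edgeR, DESeq2 and limma-voom called 0 between the tissues (2 lower by edgeR at an unadjusted p under 0.05). In GFP-negative cells edgeR called 1 higher and 1 lower in the colon, against 2.2% and 2.01% of all tested genes. The higher one was Pcgf3 (log2 difference 0.88 ± 0.18 (SE), adjusted p = 0.0169). Between GFP fractions Jarid2 was the only edgeR call in the small intestine, lower in GFP-positive cells (log2 difference -0.84 ± 0.24 (SE), adjusted p = 0.0432). Bmi1 was the only one in the colon, higher in GFP-positive cells (log2 difference 1.41 ± 0.29 (SE), adjusted p = 0.00788), at 70.8, 87.7 and 62.2 against 33.1, 24.3 and 25.8 CPM. Of all tested genes, 6.63% were called lower in the first comparison and 4.62% higher in the second.

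Trithorax proteins keep active Hox genes active. Of the 12 listed, all were tested and edgeR called 0 in each of the 5 comparisons. At an unadjusted p under 0.05 edgeR had 0 between tissues in GFP-positive cells, 2 lower in GFP-negative cells, 1 lower between small intestinal fractions, 2 higher and 1 lower between colonic fractions and 1 higher for the difference between tissues. DESeq2 called 1 higher in that last comparison and 0 elsewhere, and limma-voom called 0. The most abundant were Kdm6b, with 466, 262 and 565 CPM in small intestinal and 258, 269.9 and 244 CPM in colonic GFP-negative cells, and Kmt2d, with 437, 248 and 407 and 330.3, 405 and 380.4 CPM.

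Small intestinal replicate 2 was the highest library of both fractions for Hoxa7 and Hoxb7, at 3.13, 20.4 and 4.66 and 10.1, 33.6 and 8.27 CPM for Hoxa7 in GFP-negative and GFP-positive cells and 5.77, 11.4 and 5.47 and 4.49, 17.9 and 7.32 CPM for Hoxb7. Its posterior share of Hox counts was the highest of the 3 in GFP-positive cells (6.73%) and lay between the other 2 in GFP-negative cells (1.58%). The labels do not say which stretch of the small intestine each library came from.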
